A study of Mus musculus with 188 samples.

Results

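The genes described here are 32 mouse genes of the ATF4 and amino acid response, chosen by symbol from what the pathway is known for. The choice was made with earlier results of these data known. The genes were found in the count files through their Ensembl identifiers. The count files listed 25655 genes in batch 1 and 25528 in batches 2 and 3. All 32 members were listed in both, and all 32 passed the filter on low counts, as did 15554 genes in batch 1 and 16473 in batches 2 and 3. Ddit3 has 2 overlapping Ensembl entries on the same strand, so that reads could be split between them. Aldh18a1, Cebpg, Cth, Mthfd2, Sesn2 and Xpot also overlap a small or unnamed gene on their own strand in GENCODE M21, and their counts are uncertain to that extent. Atf5, Cebpb, Ddit3, Ppp1r15a, Psph, Shmt2 and Slc6a9 overlap a named gene on the opposite strand, and Atf3, Psat1 and Slc7a5 an unnamed one. The strand setting of the counting is not given, so these overlaps may bear on the counts too. The main Ddit3 entry, ENSMUSG00000025408, was counted as the member and the other, ENSMUSG00000116429, is given apart.

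ATF4 is the transcription factor at the end of the integrated stress response. Several kinases, among them the heme-regulated HRI (Eif2ak1) and the amino acid sensor GCN2 (Eif2ak4), phosphorylate the translation factor eIF2, which lowers protein synthesis in general and raises translation of the ATF4 mRNA. ATF4 pairs with C/EBP factors on elements with the core TGATGNAA and turns on genes of amino acid import, amino acid synthesis and tRNA handling, together with feedback genes such as Trib3 and Ppp1r15a. Since ATF4 itself is controlled mostly in translation, the mRNA of its targets is often read beside its own.

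Organotypic brain slice cultures (BSC) of C57BL/6J wild-type mice, thin coronal slices of adult brain kept on membrane inserts for a week, were exposed for 24 h or 48 h, and their bulk mRNA was sequenced in 188 libraries, of which 167 fell into 18 groups. Batch 1 held 6 groups of 10 libraries, all of 24 h: control, heme-albumin at 12.5, 50, 200 and 400 µM, and hemeHpx (heme bound to hemopexin) at 200 µM. Batches 2 and 3 held 107 libraries in 12 groups: control (10 libraries at 24 h and 9 at 48 h), hemoglobin (Hb) at 200 and 400 µM (10 libraries at each dose and time), hemoglobin bound to haptoglobin (HbHp) at 200 µM (8 and 8) and 400 µM (4 and 5), and haptoglobin alone (Hp) at 400 µM (12 and 11). The mice were young adults of both sexes, Hb, Hp, Hpx and albumin were human proteins, no group carried a transgene, and a pair of slices shared each insert. The titles of the hemeHpx libraries name haptoglobin, whereas their treatment tags and library names give hemopexin, which was followed.

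Total counts ran from 11038484 to 44199060 per library in batch 1, from 32626873 to 54174784 in batch 2 and from 15587938 to 38839614 in batch 3. Markers of neurons, astrocytes, oligodendrocytes, microglia and endothelial cells, 6 each, were found above 0 in every library of the 18 groups. No pair of libraries of a group was alike within sampling noise, and nothing in the labels says whether libraries of a group came from separate animals, so that p-values measure the spread between these libraries. The library names hold codes of a letter and a number that recur across groups and, in several groups, recur within one. What a code marks is not stated, and if it marks an animal the libraries of a group are not all independent. In batches 2 and 3 the library names begin with E1 or E2. This prefix moved most genes, with 68.0% of all genes tested and 27 of the 32 members past the threshold between E2 and E1. The 6 microglial (median log2 difference 1.10) and 6 oligodendrocyte markers (0.47) were called higher in E2. Of the 6 neuronal (0.51) and 6 endothelial markers (0.42), 5 were higher and 1 lower in each list. Among the 6 astrocyte markers 2 were higher and 2 lower. All HbHp libraries were E2 and of batch 3, whereas 14 of the 19 controls of batches 2 and 3 were E1 and 15 were of batch 2. Batch and prefix were therefore terms of the fit, and values within E2 or within batch 3 stand beside HbHp results of the members.

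Levels are CPM, the counts of a gene scaled to a common library size, and differences are log2 fold changes of the edgeR quasi-likelihood fit over all genes, with Benjamini-Hochberg adjusted p, called at 0.05. In bulk tissue, fewer cells of a type and less mRNA per cell cannot be told apart.

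Of the 32 members, 28 had a promoter in the RefSeq table (GRCm38.p6, 250 bases before to 50 after each start). The letters TGATGNAA, searched on both strands, occurred in the promoters of 8 of these 28, against 4.51% of the 27025 gene symbols in the table. The 8 stretches of 30 bases are shown because they hold the letters of the element at which ATF4 is known to act. They are written in the direction in which the element reads TGATGNAA, with the match in capitals. The coordinates are those of the stretch, followed by the strand printed.
Asns, chr6:7693214-7693243, minus strand: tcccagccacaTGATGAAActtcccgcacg
Atf3, chr1:191183425-191183454, plus strand: cgcggacttggTGATGCAAgtgcgagaagg
Chac1, chr2:119351038-119351067, minus strand: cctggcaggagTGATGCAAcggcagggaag
Nupr1, chr7:126625562-126625591, plus strand: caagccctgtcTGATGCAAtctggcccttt
Pycr1, chr11:120643833-120643862, minus strand: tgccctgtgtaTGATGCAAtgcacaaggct
Slc1a4, chr11:20332699-20332728, plus strand: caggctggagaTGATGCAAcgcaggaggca
Trib3, chr2:152344028-152344057, plus strand: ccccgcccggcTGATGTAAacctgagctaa
Vldlr, chr19:27216809-27216838, minus strand: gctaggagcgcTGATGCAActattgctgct
Of these 8 genes, Asns, Chac1, Pycr1 and Trib3 rose with heme-albumin at 200 µM, and Atf3, Nupr1, Slc1a4 and Vldlr did not pass the test there. A match is a description of the letters and not a mapped binding site.

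For Chac1, which had the largest log2 fold change of the members at 400 µM heme-albumin, 200 bases upstream of the start are shown. They run from -250 to -51 counted from the start (chr2:119350992-119351191, plus strand, GRCm38.p6). The match, here read on the gene's own strand, is in capitals.
Chac1 promoter: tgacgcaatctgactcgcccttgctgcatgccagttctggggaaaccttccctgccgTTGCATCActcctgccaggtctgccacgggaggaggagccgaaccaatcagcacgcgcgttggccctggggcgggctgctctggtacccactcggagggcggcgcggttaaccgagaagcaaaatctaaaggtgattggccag

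The members answered to heme-albumin as a group. At 200 µM for 24 h, 20 of 32 were called higher and none lower, against 6.98% of all genes called higher and 6.6% called lower. At 400 µM, 24 of 32 were called higher and none lower, against 14.7% and 14.3% of all genes. The median log2 fold change of the members was 0.40 at 200 µM and 0.62 at 400 µM, and that of all genes was -0.01 at both doses.

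**Figure D1:**
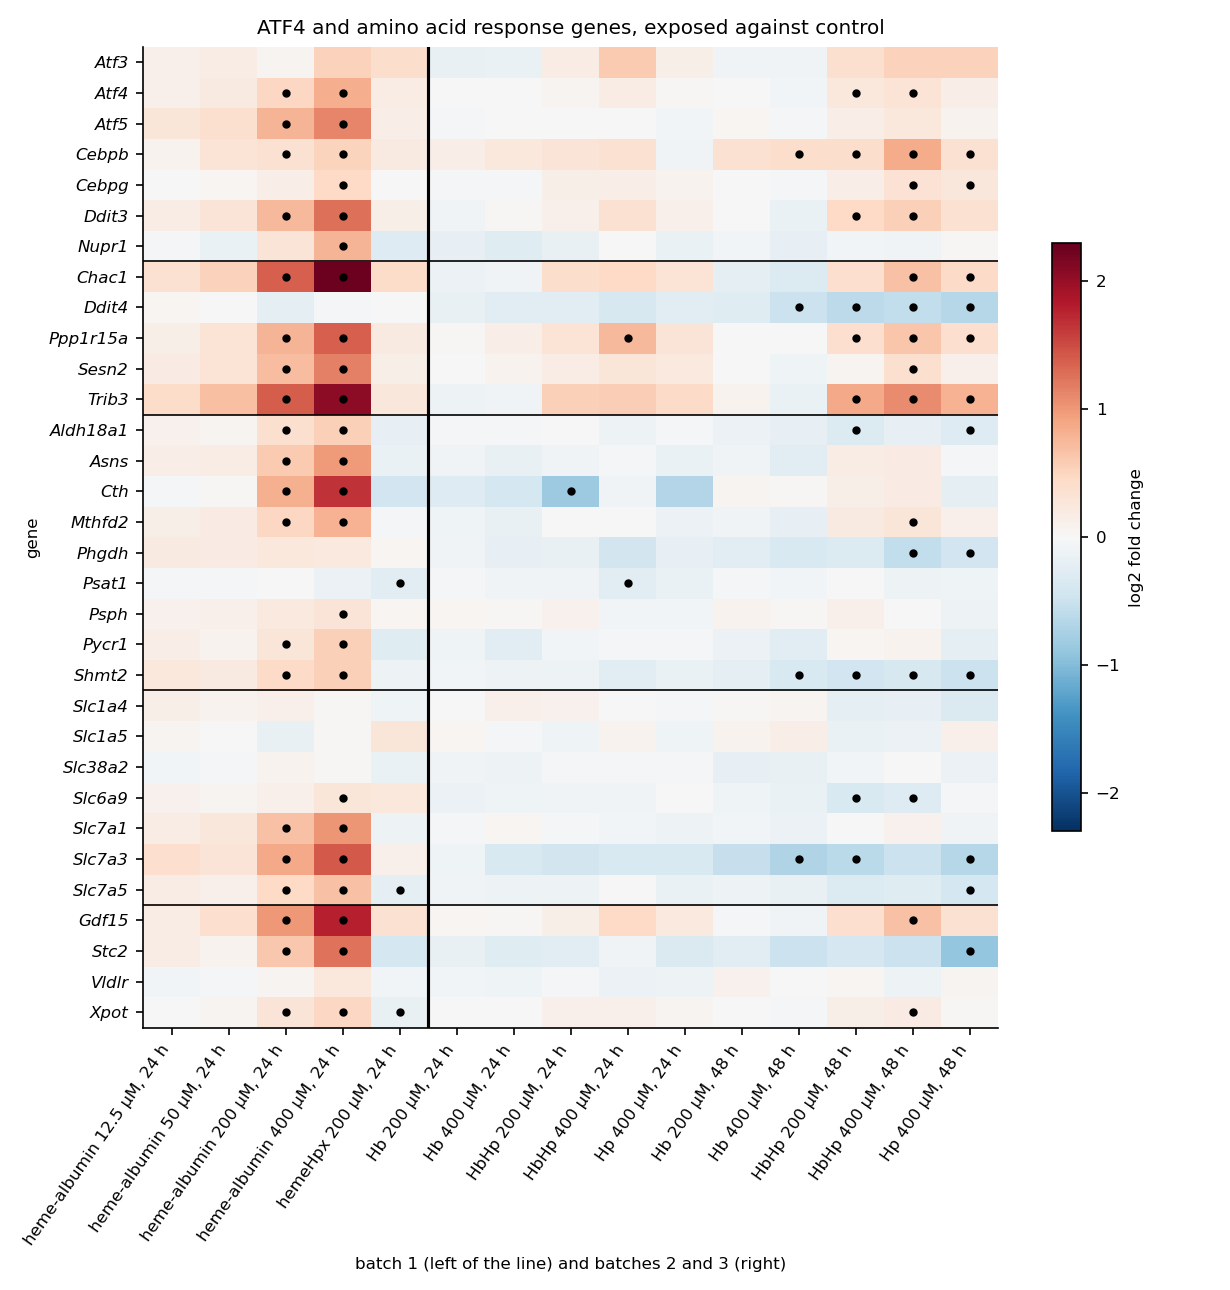
Log2 fold change of each of the 32 members (rows, grouped as regulators, stress effectors, enzymes, transporters and other targets) for every exposed group against its control (columns), with red for higher and blue for lower. Black dots mark an adjusted p under 0.05 in the edgeR fit, and they fill most of the heme-albumin 200 and 400 µM columns (20 and 24 of 32) and are fewer in the other columns.

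The lower doses gave smaller values in the same direction. At 12.5 µM, 25 of 32 members had a positive log2 fold change with a median of 0.13, and at 50 µM 28 of 32 with a median of 0.14. In the main edgeR fit none was called at either dose, where 0.045% and 0.463% of all genes were. At an unadjusted p under 0.05 there were 5 and 10 of the 32 members, against 1226 and 1820 of the 15554 genes tested. DESeq2 called 0 members at both doses. Without control replicate 13, edgeR called 1 member at 50 µM, where 0.468% of all genes were called. With a term for each code in the library names, it called 3 there, all higher, where 1.27% of all genes were called.

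**Figure D2:**
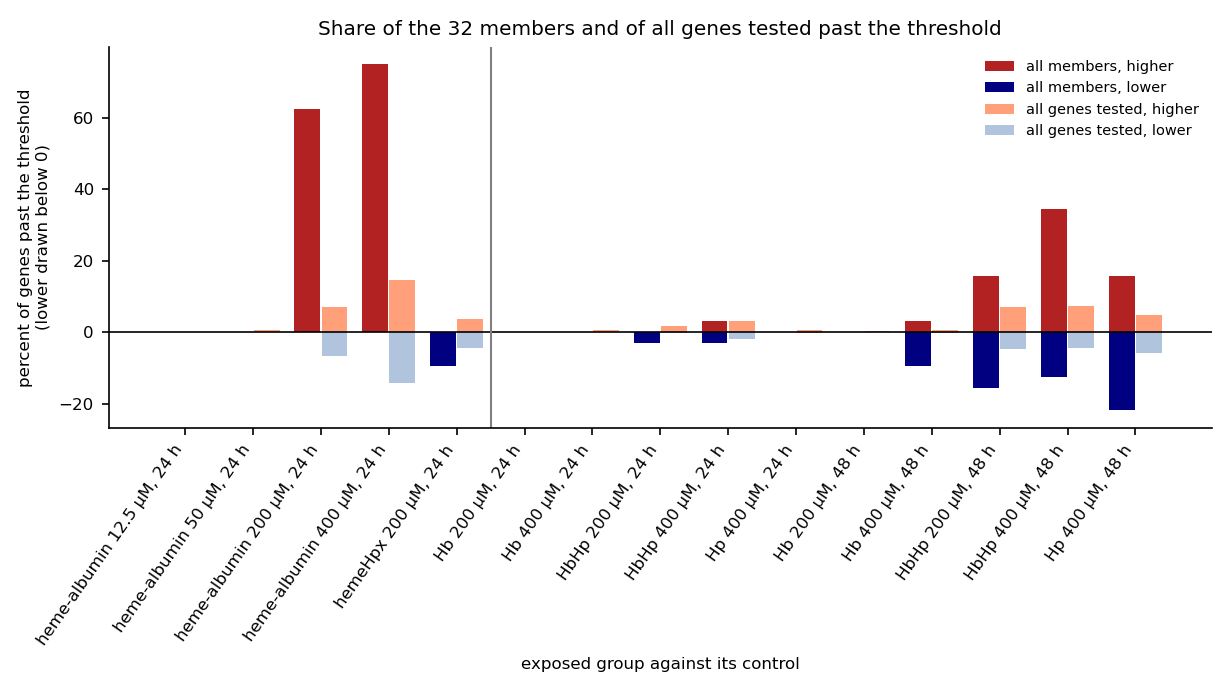
Percent of the 32 members (dark bars) and of all genes tested (pale bars) past the threshold in each exposed group against its control, with calls for lower drawn below 0. The members stand far above all genes for heme-albumin at 200 and 400 µM, where none of them was lower, and both directions appear at 48 h for HbHp and Hp.

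Among the stress effectors, Trib3 and Chac1 moved most. Trib3, a pseudokinase that binds ATF4 and limits it, lies at chr2:152337422-152344032 (GRCm38). It ran from 6.45 to 20.9 CPM in the 10 controls (median 12.9), from 13.4 to 53.5 CPM at 200 µM heme-albumin (median 33.2) and from 22.3 to 96.2 CPM at 400 µM (median 45.8). At 400 µM every library stood above every control, whereas at 200 µM the groups overlapped in the lowest exposed library. The rise was 2.61-fold at 200 µM (log2 1.39 ± 0.20 SE, adjusted p = 1.08e-06, edgeR) and log2 2.06 ± 0.20 at 400 µM (adjusted p = 6.02e-12, edgeR).

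Chac1, an enzyme that degrades glutathione, had 3.87 to 7.86 CPM in controls (median 6.01), 6.26 to 25.7 CPM at 200 µM (median 14.6) and 10.4 to 53.2 CPM at 400 µM (median 24.0). Its log2 fold change was 1.37 ± 0.21 SE at 200 µM (adjusted p = 4.35e-06, edgeR) and 2.26 ± 0.22 at 400 µM (adjusted p = 1.92e-12, edgeR). As with Trib3, the 200 µM libraries overlapped the controls only at their low end and the 400 µM libraries did not overlap them. Ppp1r15a, the subunit that brings a phosphatase to eIF2 and so ends the response, rose by log2 0.78 and 1.38, and Sesn2, an inhibitor of mTORC1 signalling, by 0.70 and 1.16. Ddit4, another mTORC1 inhibitor, was the exception among the 5 effectors, with log2 fold changes of -0.21 and -0.05 that did not pass the test.

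Of the 7 regulators, Atf4, Atf5, Ddit3 and Cebpb were called higher at 200 µM, and Cebpg and Nupr1 joined them at 400 µM. Atf4 mRNA ran from 153 to 211 CPM in controls (median 193), from 178 to 342 CPM at 200 µM (median 258) and from 212 to 443 CPM at 400 µM (median 335). Its log2 fold change was 0.48 ± 0.09 SE at 200 µM (adjusted p = 0.000133, edgeR), smaller than those of its targets Trib3 and Chac1. Atf5, a factor related to ATF4, rose from a median of 86.99 CPM (58.5 to 109) to 155 CPM (75.01 to 192) and 191 CPM (109 to 270), log2 0.78 ± 0.14 and 1.13 ± 0.14 (adjusted p = 8.6e-05 and 8.56e-09, edgeR). The 200 µM libraries of both factors overlapped the controls and the 400 µM libraries did not.

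Ddit3 encodes CHOP, a C/EBP-family factor of the stress response. Its main entry had 18.97 to 34.1 CPM in controls (median 22.7), 25.7 to 61.4 CPM at 200 µM (median 43.1) and 26.7 to 85.6 CPM at 400 µM (median 56.7), with overlap at both doses. The log2 fold change of this entry was 0.74 at 200 µM and 1.27 at 400 µM, and that of the second entry 0.71 and 1.30, both past the threshold at both doses. Cebpb, a partner of ATF4, rose less, from a control median of 27.4 CPM (17.1 to 33.1) to 32.7 CPM (27.5 to 47.8) and 37.3 CPM (24.1 to 50.8), log2 0.35 and 0.51. Atf3 spread widely, from 28.5 to 87.8 CPM in controls and from 38.7 to 110 CPM at 400 µM, and its log2 fold change of 0.53 did not pass the test.

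Amino acid enzymes rose selectively. Of the 9, the called ones at 200 µM were Cth, Asns, Mthfd2, Shmt2, Aldh18a1 and Pycr1, and Psph was added at 400 µM. Cth, which makes cysteine from cystathionine, was the least abundant, with 1.26 to 3.41 CPM in controls (median 2.67), 2.77 to 8.08 CPM at 200 µM (median 4.12) and 2.21 to 12.4 CPM at 400 µM (median 7.55). These groups overlapped, and the log2 fold change of Cth was 0.82 ± 0.20 SE at 200 µM (adjusted p = 0.00274, edgeR) and 1.67 ± 0.20 at 400 µM (adjusted p = 1.22e-09, edgeR). Asns, which makes asparagine, had 55.3 to 74.03 CPM in controls and 81.98 to 119 CPM at 200 µM, and the groups did not overlap. The mitochondrial folate enzymes Mthfd2 and Shmt2 rose by log2 0.48 and 0.45, and the proline enzymes Aldh18a1 and Pycr1 by 0.36 and 0.28. Shmt2 had 56.8 to 113 CPM in controls (median 78.6), 98.9 to 147 CPM at 200 µM (median 114) and 103 to 145 CPM at 400 µM (median 123). On the serine route, Phgdh, the first enzyme, had log2 fold changes of 0.25 and 0.22 and Psat1, the next, of 0.00 and -0.13, and neither was called. Psph, the last, had 0.23, not called, and 0.29, called at 400 µM.

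Of the 7 transporters, the 3 cationic and large neutral amino acid carriers Slc7a1, Slc7a3 and Slc7a5 were called at 200 µM, and Slc6a9, a glycine transporter, was added at 400 µM. Slc7a3, a carrier of arginine and lysine, had 3.62 to 5.72 CPM in controls (median 4.33), 6.35 to 11.1 CPM at 200 µM (median 7.67) and 6.02 to 19.1 CPM at 400 µM (median 10.9). Every exposed library of both doses stood above every control, and the log2 fold change was 0.87 ± 0.15 SE at 200 µM (adjusted p = 2.43e-05, edgeR) and 1.42 ± 0.15 at 400 µM (adjusted p = 3.28e-11, edgeR). Slc7a1, also a cationic carrier, had 72.3 to 85.7 CPM in controls, 96.1 to 156 CPM at 200 µM and 119 to 211 CPM at 400 µM, with no overlap at either dose. Slc1a4, Slc1a5 and Slc38a2, carriers of small neutral amino acids and glutamine, had log2 fold changes between -0.16 and 0.12 at both doses and were not called.

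Among the other targets, Gdf15, a secreted stress cytokine, rose from a control median of 7.87 CPM (3.18 to 14.2) to 15.5 CPM at 200 µM (6.88 to 27.8) and 24.2 CPM at 400 µM (11.6 to 52.3). The groups overlapped at both doses, with log2 fold changes of 0.99 ± 0.23 SE (adjusted p = 0.00153, edgeR) and 1.80 ± 0.23 (adjusted p = 7.93e-09, edgeR). Stc2, a secreted glycoprotein, rose by log2 0.62 and 1.25, and Xpot, which exports tRNA from the nucleus, by 0.29 and 0.47. Vldlr, a lipoprotein receptor, had log2 fold changes of 0.06 and 0.25 and was not called.

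**Figure D3:**
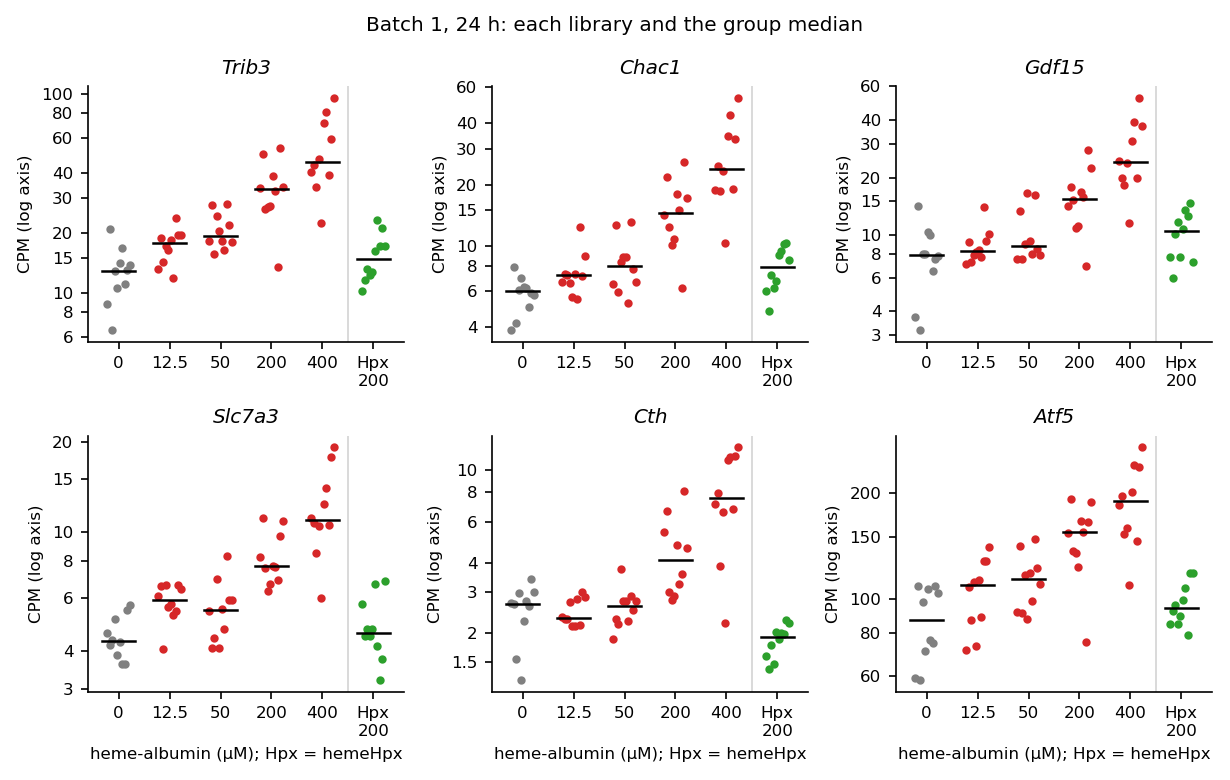
CPM (log axis) of the 6 members with the largest called change at 200 µM heme-albumin in every library of batch 1, by heme-albumin dose (red), with the control in grey at 0 and hemeHpx 200 µM in green. Black lines are group medians, which for Trib3 run from 12.9 CPM in controls to 45.8 CPM at 400 µM and stand at 14.7 CPM with hemeHpx.

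Between 400 and 200 µM heme-albumin, 12 of 32 members were called higher and none lower, against 0.707% and 0.559% of all genes. These were Chac1 (log2 difference 0.89), Cth (0.85), Gdf15 (0.80), Stc2 (0.63), Ppp1r15a (0.60), Slc7a3 (0.54), Sesn2 (0.45), Asns (0.37), Atf4 (0.36), Slc7a1 (0.34), Mthfd2 (0.31) and Cebpg (0.30). The difference of Trib3 was 0.67 and did not pass the test (adjusted p = 0.0668, edgeR).

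Members whose libraries did not overlap the controls were also more frequent than among all genes. At 200 µM, 4 members (Asns, Slc7a1, Slc7a3 and Slc7a5) had every library above every control, as did 0.553% of all genes. At 400 µM there were 12, namely these 4 and Atf4, Atf5, Trib3, Chac1, Sesn2, Ppp1r15a, Aldh18a1 and Xpot, against 1.37% of all genes. The mean log2 CPM over the 32 members ran from 5.11 to 5.49 in controls, from 5.46 to 6.10 at 200 µM and from 5.55 to 6.50 at 400 µM, so that the 400 µM libraries stood above all controls and the 200 µM libraries overlapped them at the low end.

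Markers of other cell types were lower in part. With heme-albumin at 200 µM, 5 of 6 microglial markers were called lower (median log2 fold change -0.84), as were 3 of 6 astrocyte markers (-0.30) and 2 of 6 endothelial markers (-0.38), and none of the 6 neuronal or 6 oligodendrocyte markers was called, where 6.6% of all genes were called lower. At 400 µM these counts were 3 microglial (median -0.71), 4 astrocyte (-0.42) and 2 endothelial (-0.03), with 14.3% of all genes lower, so that the microglial and endothelial medians were not lower at the higher dose. The summed microglial markers ran from 307 to 1059 CPM in controls and from 209 to 485 CPM at 200 µM, and the summed astrocyte markers from 7621 to 11737 CPM and from 6334 to 10788 CPM. Their part in the rise of the members was not tested.

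The library names of batch 1 hold the letters M and W, and the response to 200 µM was compared between them. No member was called in this interaction by edgeR, no member had an unadjusted p under 0.05, and DESeq2 called 0 as well. Among all genes 0.0% were called, and 342 of 15554 had an unadjusted p under 0.05.

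HemeHpx at the same 200 µM carries heme on hemopexin, its high-affinity plasma scavenger, in place of albumin. The question is whether the carrier changes the response. Against control, no member was called higher and 3 of 32 lower, namely Psat1 (log2 fold change -0.23), Slc7a5 (-0.23) and Xpot (-0.17), against 3.77% and 4.44% of all genes. Of the 32 members 16 had a positive log2 fold change. Without control replicate 13 there were 7 called, 1 higher and 6 lower, when 22.3% of all genes were called, and without the filter on low counts none. A term for each code in the library names also gave 1 higher and 6 lower, when 23.8% of all genes were called. Trib3 ran from 10.2 to 23.2 CPM (median 14.7) and Chac1 from 4.79 to 10.3 CPM (median 7.89), both overlapping the controls, and their log2 fold changes of 0.26 and 0.42 did not pass the test. The 95% confidence interval for Trib3 was -0.14 to 0.66, which leaves room for a small rise.

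The direct comparison of the carriers was clear for most members. Against heme-albumin at 200 µM, 22 of 32 were lower with hemeHpx and 1 was higher, where 12.9% and 13% of all genes were, and the median log2 difference was -0.55 (all genes 0.01). Cth had the largest difference, 1.41 to 2.28 CPM with hemeHpx (median 1.93) against 2.77 to 8.08 CPM with heme-albumin, with no overlap (log2 difference -1.27 ± 0.20 SE, adjusted p = 5.34e-06, edgeR). Trib3 followed with -1.12 (adjusted p = 4.58e-05, edgeR), then Stc2 with -1.02, Chac1 with -0.95 and Slc7a1 with -0.78. Slc7a1 ran from 61.8 to 91.1 CPM with hemeHpx, below every heme-albumin library. The called members comprised 4 of 7 regulators (Atf4, Atf5, Ddit3 and Nupr1), 4 of 5 stress effectors, 7 of 9 enzymes, 3 of the 4 other targets and 4 of the 7 transporters, all lower. Slc1a5, a glutamine carrier, was the one that was higher (log2 difference 0.44, 33.9 to 56.1 CPM against 24.0 to 38.9 CPM, which overlap). Cebpb differed by -0.14, with an interval of -0.35 to 0.07, and was not called. The 6 microglial markers moved the other way, with 5 of 6 called higher and a median difference of 0.90, as were 3 of 6 astrocyte, 3 of 6 oligodendrocyte and 3 of 6 endothelial markers and none of the neuronal ones, and their part in these differences was not tested.

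**Figure D4:**
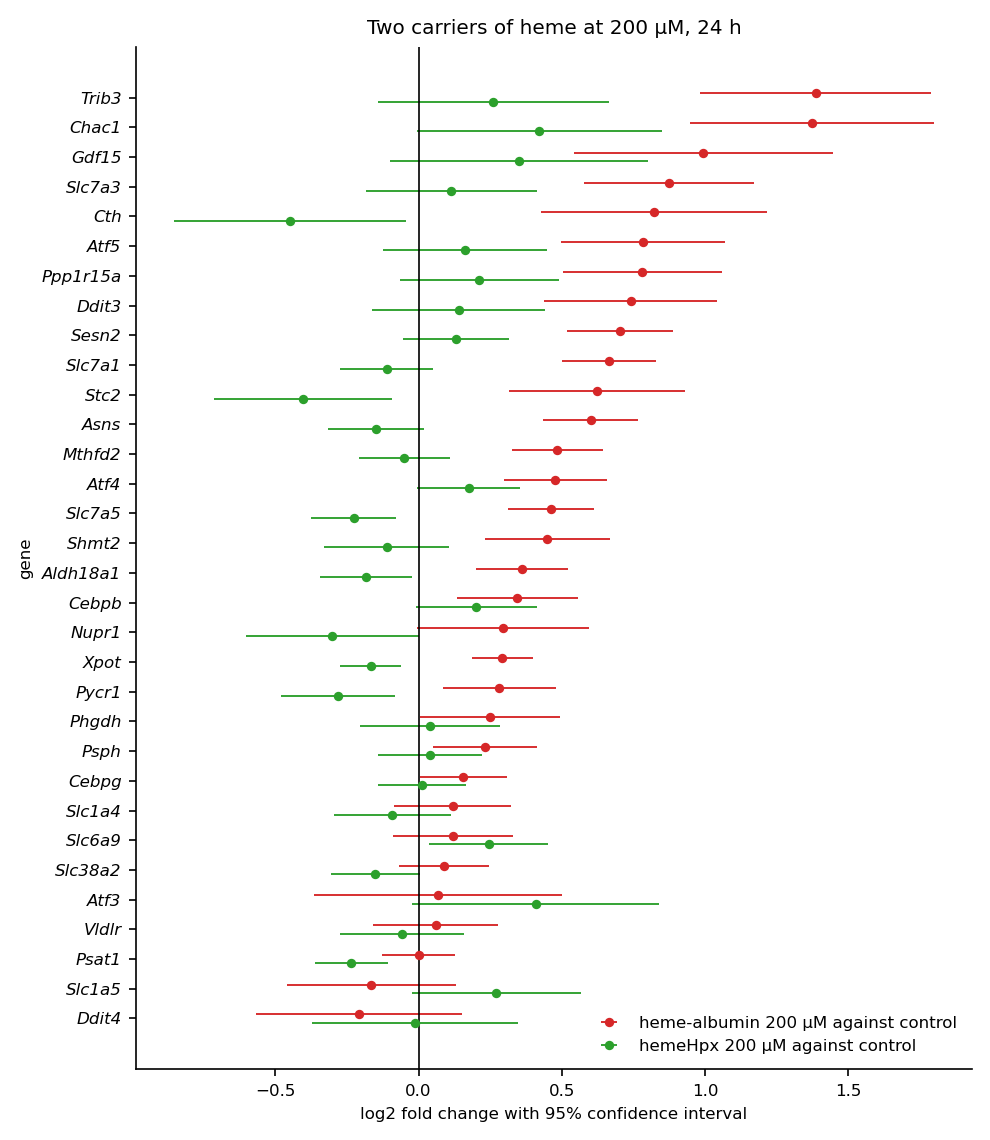
Log2 fold change against control with its 95% confidence interval for each of the 32 members at 200 µM for 24 h, with heme-albumin in red and hemeHpx in green. Both sets share the same 10 controls. The red values of the upper rows (Trib3 1.39, Chac1 1.37) lie apart from the green ones (0.26 and 0.42). Among the lowest rows, red and green lie near each other for Vldlr and Ddit4, whereas green lies higher for Slc1a5.

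The lists of other pathway genes moved in part with them. Among 17 eIF2 kinases, eIF2 and eIF2B subunits and regulators, 6 were higher and none lower at 200 µM heme-albumin, where 6.98% and 6.6% of all genes were, with small values: Eif2b3 (log2 fold change 0.32), Gcn1 (0.25), Eif2b4 (0.24), Eif2s2 (0.18), Eif2b1 (0.17) and Dele1 (0.17), the last a relay of mitochondrial stress to HRI. At 400 µM 8 were higher and the kinase HRI itself (Eif2ak1) was lower (-0.12), with 14.7% and 14.3% of all genes called higher and lower. With hemeHpx against control, 2 of the 17 were lower, as were 4.44% of all genes. These are mRNA levels and say nothing of eIF2 phosphorylation, which was not measured in these files.

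Among 14 further ATF4 targets, 13 passed the filter and Fgf21 did not. At 200 µM heme-albumin 6 of 13 were higher, against the same 6.98% of all genes, namely Adm2 (log2 fold change 1.74), the cystine carrier Slc7a11 (1.54), its partner chain Slc3a2 (0.81), the translation inhibitor Eif4ebp1 (0.73), Mthfd1l (0.38) and Ifrd1 (0.31). Gpt2, an alanine aminotransferase, was lower (-0.29). Slc7a11 is also a known target of NRF2, so that it does not belong to ATF4 alone. With hemeHpx against heme-albumin, 7 of the 13 were lower and Gpt2 was higher, against 12.9% and 13% of all genes.

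Hb alone left the members near control. At 24 h none was called at 200 or 400 µM by edgeR, where 0.0971% and 0.522% of all genes were. At an unadjusted p under 0.05 there were 0 and 9 of the 32 members, against 516 and 1141 of the 16473 genes tested. DESeq2 called 0 members at both doses, and the medians of the members were -0.07 and -0.08. At 48 h none was called at 200 µM by edgeR (0.31% of all genes) and 0 by DESeq2. At an unadjusted p under 0.05 there were 6 members and 784 of the 16473 genes. At 400 µM and 48 h Cebpb was higher (log2 fold change 0.40) and Slc7a3 (-0.70), Ddit4 (-0.50) and Shmt2 (-0.35) were lower, against 0.486% of all genes called higher and 0.115% called lower. Trib3 had 7.62 to 15.8 CPM in the 48 h controls (median 12.04) and 5.81 to 15.5 CPM with 400 µM Hb (median 9.39), within the range of the controls but for the low end. Within E2 and within batch 3 none of the 4 was called, where 0.219% and 0.0121% of all genes were. Within E2 Ddit4 and Shmt2 turned to 0.02 and 0.06.

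HbHp at 24 h gave few calls. At 200 µM Cth alone was called, as lower (log2 fold change -0.83 ± 0.22 SE, adjusted p = 0.0283, edgeR), with 0.530 to 1.25 CPM (median 0.987) against an overlapping 1.03 to 2.89 CPM in controls, while 1.66% of all genes were higher and 0.273% lower. At 400 µM, with 4 libraries, Ppp1r15a was higher and Psat1 lower, against 3.1% and 2.06% of all genes. Trib3 was 32.3, 34.8, 28.2 and 39.6 CPM in these 4 libraries, all above the 24 h controls (14.4 to 27.2 CPM), but the fit with batch and prefix gave log2 0.57 and an adjusted p of 0.0717 (edgeR). The 3 E2 controls had 22.6 to 27.2 CPM. Within E2 neither Cth at 200 µM (-0.75) nor Ppp1r15a (0.47) or Psat1 (-0.23) at 400 µM was called. Within batch 3 Ppp1r15a was called (0.81) and Cth (-0.61) and Psat1 (-0.22) were not.

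At 48 h more members moved with HbHp, in both directions. At 200 µM, 5 were higher and 5 lower, against 7.04% and 4.85% of all genes. At 400 µM, 11 were higher and 4 lower, against 7.39% and 4.56%. The medians of the members were 0.06 and 0.09, with most calls for higher among regulators and stress effectors and most calls for lower among enzymes and transporters.

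Trib3 had 17.9 to 31.3 CPM in the 8 libraries of HbHp 200 µM at 48 h (median 22.97). In the 5 libraries of HbHp 400 µM it had 31.7, 24.7, 26.6, 25.0005 and 29.8 CPM. All of these stood above the 9 controls (7.62 to 15.8 CPM), including the 2 E2 controls of 12.6 and 15.8 CPM. The log2 fold change was 0.87 ± 0.17 SE at 200 µM (adjusted p = 0.000242, edgeR) and 1.08 ± 0.19 at 400 µM (adjusted p = 1.62e-05, edgeR). Within E2 it was 0.67 and 0.88, and within batch 3 it was 0.75 and 0.96.

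Ddit3 had 33.2 to 62.3 CPM with HbHp 200 µM (median 40.7) against 18.4 to 38.1 CPM in the 48 h controls (median 24.8), but the 2 E2 controls were at 29.9 and 38.1 CPM, and these ranges overlap. Its log2 fold change was 0.46 at 200 µM and 0.55 at 400 µM, and 0.25 and 0.33 within E2, where it was not called. The second entry had 0.42, not called, and 0.50, called. Cebpb reached 52.5, 74.98, 77.1, 55.8 and 51.5 CPM in the 5 libraries of HbHp 400 µM against 28.3 to 61.6 CPM in controls, which overlap. Its log2 fold change was 0.85 ± 0.13 SE (adjusted p = 1.47e-06, edgeR), and within E2 0.66 (adjusted p = 0.0204, edgeR). Atf4 mRNA rose by log2 0.25 at 200 µM and 0.31 at 400 µM, and Ppp1r15a by 0.39 and 0.64. Called at 400 µM and not at 200 µM were Chac1 (0.67), Gdf15 (0.68), Sesn2 (0.37), Cebpg (0.33), Mthfd2 (0.27) and Xpot (0.18), all higher, and Phgdh, which was lower (-0.56). Within E2 and within batch 3 Phgdh had -0.35 and -0.41, not called.

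Lower at both doses were Ddit4, Shmt2 and Slc6a9, and at 200 µM alone Slc7a3 and Aldh18a1. For several called falls the E2 controls lay near the exposed libraries. Ddit4 had 49.5 to 61.2 CPM with HbHp 200 µM at 48 h (median 54.6) and 59.1 to 145 CPM in controls (median 85.7). The 2 E2 controls were at 59.1 and 60.7 CPM, next to the exposed libraries, and the 7 E1 controls ran from 69.8 to 145 CPM. Its log2 fold change was -0.60 (adjusted p = 0.000107, edgeR), and -0.14 within E2, not called. Shmt2 had 39.6 to 57.2 CPM (median 51.8) against 50.97 to 113 CPM (median 98.6), with E2 controls of 50.97 and 60.98 CPM, and its log2 fold change went from -0.44 to -0.20 within E2. Slc7a3 had 2.36 to 5.62 CPM (median 3.32) against 4.09 to 9.82 CPM (median 5.79), overlapping, and its fall was -0.62 in the whole fit and -1.07 within E2, where it was called.

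**Figure D5:**
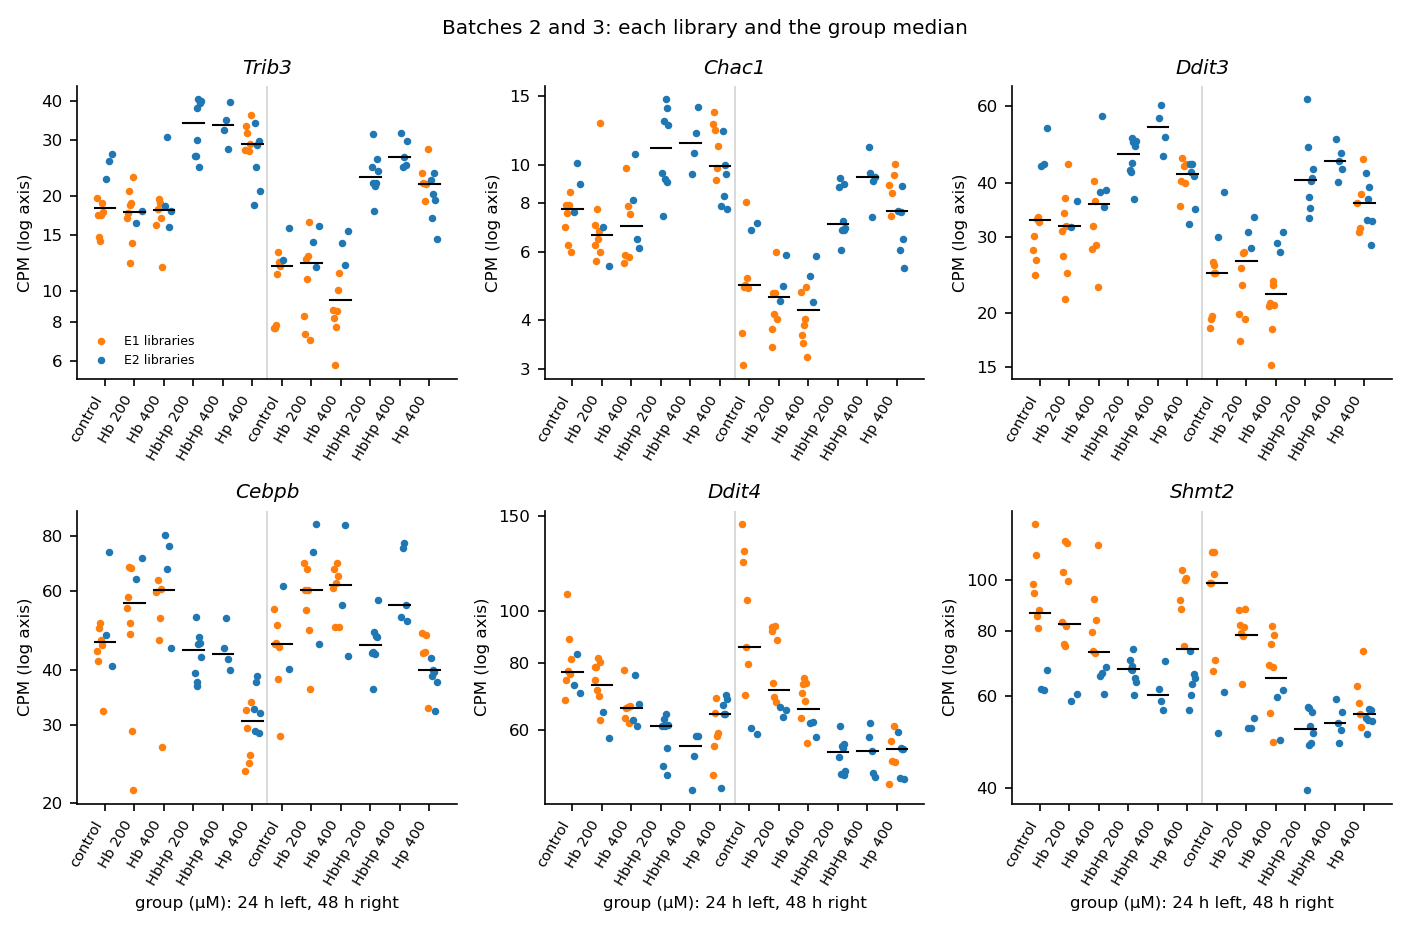
CPM (log axis) of 6 members in every library of batches 2 and 3 by group, with 24 h to the left and 48 h to the right of the grey line, E1 libraries in orange, E2 libraries in blue and group medians as black lines. HbHp groups hold E2 libraries alone; Trib3 stands above the controls at 48 h, whereas the E2 controls of Ddit4 and Shmt2 lie near the exposed libraries.

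Over all 10 members called for HbHp 200 µM at 48 h, 10 kept their sign within E2 and within batch 3, and 2 (Slc6a9 and Slc7a3) and 0 were still called. For HbHp 400 µM, 15 of 15 kept their sign in both, and 4 were still called in each, namely Trib3, Cebpb, Ppp1r15a and Xpot. Of all genes, 3.93% (200 µM) and 4.66% (400 µM) were called within E2, and 2.17% and 3.65% within batch 3. There were 2 controls of 48 h in E2 and 2 in batch 3. Both fits used the same HbHp libraries from which the calls were made, so a kept sign is no independent replication. Without replicate 1 of HbHp 200 µM at 48 h, which had the lowest Atf5 and Shmt2 of its group, 7 of the 10 were still called.

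Hp alone at 400 µM and 48 h moved members as well, with 5 higher and 7 lower, against 4.88% and 5.88% of all genes. Trib3 ran from 14.6 to 28.1 CPM in 11 libraries (median 21.8) and rose by log2 0.79 ± 0.16 SE (adjusted p = 0.000672, edgeR), overlapping the controls. Chac1 (0.45), Ppp1r15a (0.38), Cebpb (0.36) and Cebpg (0.26) were also higher. Lower were Stc2 (-0.89), Slc7a3 (-0.66), Ddit4 (-0.66), Shmt2 (-0.50), Phgdh (-0.45), Slc7a5 (-0.40) and Aldh18a1 (-0.29). All Hp libraries were of batch 3. Within E2 and within batch 3 none of the 12 was called, and within E2 Chac1 and Cebpb turned to -0.02 and -0.03. Of all genes, 0.0304% were called within E2 and 0.0% within batch 3, so the lack of calls is not particular to the members. At 24 h none was called by edgeR, with 0.704% of all genes called. At an unadjusted p under 0.05 there were 7 members and 1973 of the 16473 genes. DESeq2 called 1 member and 1.21% of all genes. Hb, HbHp and Hp were compared with the same controls of each time, so their values are not independent of each other.

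The comparisons between exposed groups set no control against them, but their batch and prefix terms were estimated over all 107 libraries, controls included. HbHp 200 µM against Hb 200 µM at 48 h had 6 members higher and none lower, against 3.14% and 1.84% of all genes: Trib3 (log2 difference 0.79), Chac1 (0.60), Ddit3 (0.47), Ppp1r15a (0.39), Mthfd2 (0.30) and Atf4 (0.24). Without replicate 1 of HbHp, Trib3 alone was called, where 2.02% of all genes were. At 24 h Trib3 alone was called (0.67, adjusted p = 0.0402, edgeR), against 0.413% of all genes higher and 0.194% lower, with 24.8 to 40.5 CPM with HbHp and 12.3 to 22.99 CPM with Hb, which do not overlap. All 8 HbHp libraries were E2 and 8 of 10 Hb libraries of 24 h were E1, and neither time had a called member within E2 or within batch 3. Of all genes, 0.0% at 24 h and 0.329% at 48 h were called within E2, and 1.22% and 0.0424% within batch 3.

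HbHp 400 µM against Hp 400 µM compares the complex with its scavenger, all within batch 3, though Hp held 5 E1 and 6 E2 libraries at 48 h. Cebpb alone was called at 48 h (log2 difference 0.49 ± 0.12 SE, adjusted p = 0.0106, edgeR), against 1.03% of all genes higher and 0.413% lower. Every HbHp library, from 51.5 CPM, stood above every Hp library, at most 48.3 CPM. Without HbHp replicate 2 or 3 the call was lost. For Trib3 the difference was 0.29 with an interval of -0.04 to 0.62 and for Atf4 0.15 with 0.02 to 0.28, neither called. At 24 h Ppp1r15a alone was called (0.45, adjusted p = 0.0498, edgeR), against 0.522% of all genes higher and 0.0971% lower, and the call was lost without any one of HbHp replicates 1, 2 and 3.

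In the controls several members were lower at 48 h than at 24 h. Between 48 h and 24 h, 12 of 32 were lower and none higher, against 2.85% and 1.66% of all genes. Most codes in the library names differed between the 24 h and the 48 h controls. With a term for each code, 4 of the 12 were called, where 0.862% of all genes were. Trib3 fell most, by 0.80 on the log2 scale, from 14.4 to 27.2 CPM (median 18.4) to 7.62 to 15.8 CPM (median 12.04), which overlap. It was followed by Cth (-0.60), Chac1 (-0.54), Ddit3 (-0.44), Pycr1 (-0.35), Slc7a1, Atf5 and Vldlr (-0.33 each), Asns (-0.32), Mthfd2 (-0.31), Atf4 (-0.22) and Psat1 (-0.19). Within E2 1 of the 12 was called and within batch 3 none, where 0.877% and 0.0% of all genes were. These fits had 3 and 2 controls of 24 h and 2 and 2 of 48 h. In the same comparison 4 of 6 oligodendrocyte markers and 1 of 6 endothelial markers were lower and 2 of 6 microglial markers higher (median 0.60), and their part in the fall was not tested. In the exposed groups Trib3 was likewise lower at 48 h, with medians of 34.02 and 22.97 CPM for HbHp 200 µM and of 29.1 and 21.8 CPM for Hp 400 µM. No member was called for a difference of the HbHp 200 µM response between the times by the interaction test in edgeR (0.0121% of all genes). At an unadjusted p under 0.05 there were 9 members and 1685 of the 16473 genes, and DESeq2 called 0 members. For Hb 200 µM edgeR likewise called no member (0.0% of all genes) and DESeq2 0. There, 0 members and 118 of the 16473 genes had an unadjusted p under 0.05.

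The further ATF4 targets also moved at 48 h. With HbHp 200 and 400 µM, 4 and 5 of 13 were higher, against 7.04% and 7.39% of all genes, and Gpt2 was lower in both (-0.30 and -0.49). Slc7a11 had the largest values, log2 1.73 and 1.97, with 0.83 for Hp 400 µM. Slc3a2 rose by 0.30, 0.43 and 0.20 in these 3 groups. With Hp 400 µM, 2 of the 13 were higher and 2 lower, against 4.88% and 5.88% of all genes. Of the 17 eIF2 genes Impact, an inhibitor of GCN2, was the one called higher in all 3 (0.32, 0.30 and 0.25), and 3 were lower with Hp. Between E2 and E1, 9 of the 13 and 12 of the 17 were called, against 68.0% of all genes. Values within E2 or batch 3 are not given for these lists. At 48 h with HbHp 400 µM, 1 of 6 microglial markers was lower (P2ry12, -0.93), as was 1 of 6 in each of the astrocyte, oligodendrocyte and endothelial lists, with 4.56% of all genes called lower. The summed microglial markers ran from 761 to 2000 CPM against 328 to 2243 CPM in controls, and their part in these results was not tested.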

How the data were processed

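Counts of reads per Ensembl gene were deposited by the authors for each library, with featureCounts and GRCm39 named in the submitters' processing notes; the aligner and strand setting are not given in the sources used here. The counts were raw and whole. Libraries were grouped by their labels, and 21 with conflicting or unclear labels entered no comparison. Batch 1 was fitted apart from batches 2 and 3, with terms for group and, in the latter, for batch and the E1 or E2 prefix of the library name.

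Genes were filtered with filterByExpr (smallest count 10, total 15), library sizes scaled by TMM, and groups compared with edgeR 4.0.16 (quasi-likelihood F test, Benjamini-Hochberg adjusted p over all genes, 0.05) in R 4.3.3. The fit was also run on simulated counts. These held no effect of batch, prefix or code, so they cannot speak to the comparisons in which such effects matter. Alternatives were DESeq2 1.42.0, RLE scaling, other filters, a GC and length correction, a replicate block, other terms, E2 or batch 3 alone, and single libraries left out. Log2 CPM values used a prior count of 2. Intervals are 95% intervals of the fit. Positions and promoters are of GRCm38, read by symbol and not by converting coordinates.

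Values group by group are given for the 6 called members of largest absolute change at 200 µM heme-albumin and the 4 further called ones of largest change for HbHp 200 µM at 48 h; other members are given by counts, ranges and single log2 fold changes. Levels of Asns, Slc7a1, Slc1a5, Atf3 and Atf4, and the promoter stretches of members outside these 10, were added after their values were seen. The members and the lists were chosen with earlier results of these data known.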

Additional observations from a re-analysis of the deposited data

Results flagged for a closer look

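Single libraries that stood apart were looked for by Dixon's test in 176 groups of values of the named members, and 12 were found, where chance alone flags about 1 in 20 groups. In the heme-albumin 200 µM group, replicate 8 was low for Trib3 (log2 CPM 3.75, next library 4.73) and for Atf5 (6.23, next 6.95). At 12.5 µM, replicate 8 was high for Gdf15 (3.83, next 3.35) and Ddit3 (5.27, next 4.87), and replicate 3 low for Slc7a3 (2.05, next 2.43). In HbHp 200 µM at 48 h, replicate 1 was low for Atf5 (6.64, next 7.05) and Shmt2 (5.31, next 5.60). In HbHp 400 µM at 48 h, replicate 2 was low for Cth (-0.57, next 0.44). In Hb 200 µM, replicate 10 was high for Chac1 at 24 h (3.68, next 2.96) and replicate 2 low for Atf5 at 48 h (6.66, next 6.83). In Hb 400 µM at 24 h, replicate 7 was high for Trib3 (4.95, next 4.29) and replicate 9 low for Cebpb (4.74, next 5.49).

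The 20 libraries whose treatment tag reads HbHpx 400 µM, and whose titles name haptoglobin, were put in no group and no test, and are given as values because members there exceeded the highest control of the same time. They were 14 E1 and 6 E2 libraries, all of batch 3, whereas most controls were of another batch. The share of all genes outside the range of the controls in these libraries was not counted. Whether the values below are particular to the members was therefore not tested. Nupr1, a stress-induced chromatin regulator, had a median of 96.9 CPM in the 10 libraries of 24 h (47.5 to 183), all above the highest control of 36.5 CPM, and of 84.9 CPM in the 10 of 48 h (49.2 to 237), all above 27.2 CPM.

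At 24 h the medians of 7 more members were above the highest control (given second): Cebpg 71.7 and 69.0 CPM, Trib3 30.02 and 27.2 CPM, Chac1 15.9 and 10.1 CPM, Sesn2 75.2 and 56.2 CPM, Cth 3.45 and 2.89 CPM, Slc38a2 248 and 241 CPM, and Xpot 122.8 and 121.6 CPM.

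At 48 h these were Atf4 197 and 161 CPM, Atf5 206 and 144 CPM, Ddit3 49.4 and 38.1 CPM, Cebpg 78.8 and 65.4 CPM, Trib3 33.9 and 15.8 CPM, Chac1 11.7 and 8.03 CPM, Sesn2 76.4 and 57.6 CPM, Ppp1r15a 59.6 and 34.7 CPM, Cth 2.56 and 2.50 CPM, Slc7a3 10.8 and 9.82 CPM, and Xpot 122 and 118 CPM.

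Other members lay below the controls in these libraries. Ddit4 was below the lowest control in 10 of 10 libraries at both times, with 39.01 to 63.4 CPM against at least 68.2 CPM at 24 h and 40.96 to 50.3 CPM against at least 59.1 CPM at 48 h. Psat1 was below it in 10 of 10 and 9 of 10, Phgdh in 7 and 6, and at 24 h Pycr1 in 8 and Vldlr in 6 of 10.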

How the results depend on the processing

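For heme-albumin at 200 and 400 µM, 18 to 21 and 24 to 27 members were called under the alternatives run. For heme-albumin 12.5 µM and for Hb 200 and 400 µM at 24 h, 0 were called in all of them. The HbHp and Hp results, Hb 400 µM at 48 h and control over time changed with the terms for batch and prefix or within E2 or batch 3. Few controls of E2 or batch 3 limited the fits within them, and the cause was not tested. Numbers below are members called, and a percentage in brackets is the share of all genes called in the same fit. Leaving out control replicate 13, control 24 h replicates 10 and 11, control 48 h replicates 8 and 9 or HbHp 200 µM 48 h replicate 1 was chosen after seeing the data.

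With the replicate block, 3 were called for heme-albumin 50 µM (1.27%), 7 for hemeHpx against control (23.8%) and 2 for HbHp 200 µM at 24 h (1.27%). There were 0 for HbHp against Hb 200 µM at 24 h (0.0364%), 1 for Hb 400 µM at 48 h (0.54%) and 4 for control over time (0.862%). The codes in the library names were not taken to pair the samples, since not every same-code correlation was over 0.1. This rule asks it of every pair, so failing it cannot exclude pairing. In batch 1 the same-code correlations had a median of 0.19 (94 of 169 over 0.1) against -0.01 for different codes (517 of 1331). Shared codes thus went with likeness there. In batches 2 and 3 the medians were 0.061 (124 of 291) and -0.005 (1620 of 4926). The block with a GC correction was therefore not run.

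Without the filter, hemeHpx against control (1.24%), HbHp against Hb 200 µM at 24 h (0.23%) and HbHp against Hp 400 µM at 24 h (0.382%) had 0. The last also had 0 with RLE scaling (0.589%). With the GC and length correction HbHp against Hb 200 µM at 24 h had 0 (0.0546%) and Hb 200 µM at 48 h had 1 (0.395%). With DESeq2 Hp 400 µM at 24 h had 1 (1.21%).

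Without the prefix term, HbHp at 24 h had 5 at 200 µM (3.46%) and 9 at 400 µM (7.61%). HbHp against Hb 200 µM had 6 at 24 h (5.71%) and 14 at 48 h (14.1%), and HbHp against Hp 400 µM at 24 h had 2 (1.02%). Hb 400 µM at 48 h had 1 (0.334%). HbHp 200 µM at 48 h had 18, when 24.7% of all genes were called in place of 11.9%. With neither term, HbHp at 24 h had 10 at both doses, Hp at 24 h 5, HbHp against Hb 200 µM 11 at 24 h and 18 at 48 h, Hb 400 µM at 48 h 1, HbHp 200 µM at 48 h 18 (31.3% of all genes) and HbHp against Hp 400 µM at 48 h 0.

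Within E2, HbHp at 24 h had 0 at 200 µM (0.907%) and 1 at 400 µM (1.97%), and HbHp at 48 h had 2 and 4 (3.93% and 4.66%). Hb 400 µM at 48 h had 0 (0.219%), Hp at 48 h 0 (0.0304%) and HbHp against Hb 200 µM 0 at both times (0.0% and 0.329%). HbHp against Hp 400 µM at 48 h had 3 (3.37%) and control over time 1 (0.877%). Within batch 3, HbHp 200 µM had 0 at both times (1.65% and 2.17%) and HbHp 400 µM at 48 h had 4 (3.65%). Hb 400 µM at 48 h had 0 (0.0121%), Hp at 48 h 0 (0.0%) and HbHp against Hb 200 µM 0 at both times (1.22% and 0.0424%). HbHp against Hp 400 µM at 24 h had 2 (1.08%) and control over time 0 (0.0%). Signs turned within E2 for Hb 400 µM at 48 h in Ddit4 (0.0191) and Shmt2 (0.0570), and for Hp at 48 h in Chac1 (-0.0153) and Cebpb (-0.0319). They turned within batch 3 for Shmt2 with Hb 400 µM (0.0787) and Ppp1r15a between E2 and E1 (-0.0343), and with neither term for Cebpb with Hp (-0.165).

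With single libraries left out, there were 1 for heme-albumin 50 µM (0.468%), 7 for hemeHpx against control (22.3%) and 1 for HbHp against Hb 200 µM at 48 h (2.02%). The ranges were 1 to 3 for HbHp 400 µM at 24 h, and 0 to 3 and 0 to 1 for HbHp against Hp 400 µM at 24 h and 48 h.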

Other observations

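One control of batches 2 and 3 whose time labels conflict entered no group. Its levels were 151.6 CPM for Atf4, 33.5 CPM for Ddit3, 28.1 CPM for Nupr1 and 6.50 CPM for Chac1.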
